A study of Mus musculus with 8 samples.

Results

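The oligoadenylate synthetases (Oas genes) were followed here across 8 RNA-seq libraries of transferred CD4 T cells. Members were the rows of the gene count table whose symbol starts with Oas, which gave 8 of 11354 genes: Oas1a, Oas1b, Oas1c, Oas1g, Oas2, Oas3, Oasl1 and Oasl2. The RefSeq gene table lists 12 genes of the family, and the other 4 were not analysed here. CD4 T cells from wild-type or Nlrp6-/- donors had been given to RAG-/- mice of Black6 background, hosts lacking T and B cells. Each library is named after its label and its host number: WT 1, WT 2, WT 4 and WT 5 for the wild-type label, KO 1, KO 2, KO 4 and KO 5 for the knock-out label. The labels give no age, and they place the cells both in the host spleen and in the colonic lamina propria. The labels do not say whether a host number is 1 mouse given both kinds of cells. The p-values thus reflect only how far these libraries scatter, which may be technical.

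Nlrp6 itself went against the labels, with 5, 3, 3 and 8 counts in the libraries labelled wild type and 487, 329, 477 and 648 counts in those labelled knock-out. Directions below are therefore those of labels and not of genotypes. Totals ranged from 35198192 to 40310721 counts per library. Levels are given in CPM, counts scaled to a common library size. Of 9 measured T cell markers edgeR called 0 (3 at an unadjusted p under 0.05), limma-voom 3 lower (Cd2, Cd3g and Cd4) and DESeq2 1 lower (Cd2). Their summed level was 7525 to 8536 CPM in wild-type-labelled libraries and 7082 to 7619 CPM in the others. Of 20 macrophage and monocyte markers, 18 were called higher under the knock-out label, at a summed 62.4 to 110 CPM against 324 to 1009 CPM. All 20 were measured and Lyz2 (23.3 and 201 CPM) led the list. Of 7 measured dendritic cell and MHC class II markers 5 were higher, and all 7 summed to 62.7 to 108 CPM against 445 to 1283 CPM. Cd74, H2-Aa, H2-Eb1 and H2-Ab1 rose and led that sum, at means of 401, 158, 140 and 138 CPM under the knock-out label. Batf3 (2.39 CPM) rose too (edgeR adjusted p = 0.0479). Itgax and Zbtb46 did not pass (log2 fold changes 0.45 and 0.10, edgeR adjusted p = 0.405 and 0.833). Of 5 neutrophil markers 4 were higher (13.4 to 22.2 CPM against 35.5 to 77.0 CPM). Among all genes edgeR called 6.2% higher. The 6 markers of B cells were not analysed here, nor were the dendritic markers Flt3, Xcr1, Clec9a, Siglech and Clec10a. The same holds for the neutrophil markers Cxcr2, Retnlg and Ly6g. In bulk RNA, more cells of a type and more RNA per cell cannot be told apart.

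Oligoadenylate synthetases bind double-stranded RNA, a sign of viral infection, and join ATP into short 2'-5'-linked oligoadenylates. These act as messengers of the antiviral response. The genes are textbook targets of type I interferon: the receptor Ifnar1/Ifnar2 signals through the kinases Jak1 and Tyk2 to factors that include Stat2 and Irf9. These bind the interferon-stimulated response element (ISRE) in target promoters. In mice the human gene OAS1 corresponds to a row of paralogues, and not all of these make an active enzyme.

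Transcripts of 5 of the 8 genes rose under the knock-out label and 0 fell. Oasl1, Oasl2 and Oas2 rose most, by 4.95, 4.84 and 4.44 times, while Oas1g rose 2.31 times and Oas1a 1.72 times. Oas3, the most abundant of the family, and the neighbours Oas1b and Oas1c did not pass. The test was edgeR's quasi-likelihood test over all 11354 genes with Benjamini-Hochberg adjustment, and an adjusted p below 0.05 made a call. Over all genes it called 10.0% in either direction, 6.2% higher and 3.84% lower. The median log2 fold change was 0.99 over the 8 members and -0.0026 over all genes. The labels' libraries did not overlap for the 5 genes that rose, a separation seen in the higher direction for 8.6% of all genes. In the lower direction 0 members and 7.37% of all genes were so separated.

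**Figure D1:**
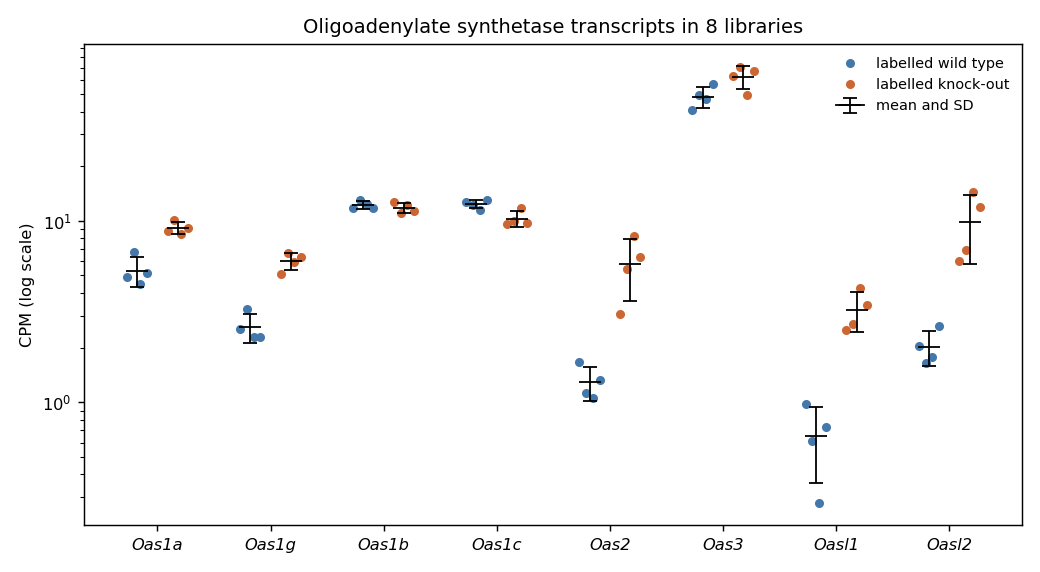
Level of each Oas gene in CPM (log axis) in the 4 libraries labelled wild type (blue) and the 4 labelled knock-out (orange), with the mean and SD. The orange points lie wholly above the blue ones for Oas1a, Oas1g, Oas2, Oasl1 and Oasl2, and the colours overlap for Oas1b, Oas1c and Oas3.

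The enzyme genes of the Oas1 row lie in 1 cluster on chromosome 5 (GRCm38, positions from GENCODE). Oas1a (120896256 to 120907521, minus strand), which encodes an active small synthetase, was at 4.90, 6.75, 4.50 and 5.14 CPM in WT 1, WT 2, WT 4 and WT 5. It was at 8.77, 10.2, 8.51 and 9.10 CPM in KO 1, KO 2, KO 4 and KO 5. Every library labelled knock-out was above every library labelled wild type, and the knock-out libraries differed among themselves by no more than 1.19 times. The log2 fold change was 0.78 ± 0.13 (SE; edgeR adjusted p = 0.00517).

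Oas1g (120876142 to 120887613, minus strand), the closest relative of Oas1a, was at 2.52, 3.29, 2.30 and 2.30 CPM under the wild-type label. Under the knock-out label it was at 5.12, 6.65, 5.90 and 6.35 CPM in the same host order. WT 2 was the highest wild-type library and KO 2 the highest knock-out library for both genes. Its log2 fold change was 1.21 ± 0.15 (edgeR adjusted p = 0.000997).

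The counts of this pair are uncertain, because reads of 81 bases cannot always tell the paralogues apart. Of 1805 distinct windows of 81 bases in the annotated transcripts of Oas1a, 826 (45.8%) also occur in Oas1g, where they make up 35.4% of 2336 windows. With both genes counted as 1, an alternative chosen after seeing the data, the log2 fold change was 0.93 (edgeR adjusted p = 0.00135). Transcripts of Oas1b, Oas2, Oas3, Oasl1 and Oasl2 shared 0 such windows with any other annotated gene. Oas1c shared 5.41%, mostly with Gm43069, a gene antisense to it.

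Oas1b (120812635 to 120824163, plus strand), known for a role in resistance to flaviviruses, is listed by RefSeq as a transcribed pseudogene and by GENCODE as a polymorphic pseudogene in this reference strain. It was at 11.8, 13.0, 12.4 and 11.8 CPM in the 4 libraries labelled wild type and 12.6, 11.0, 12.2 and 11.4 CPM in those labelled knock-out. The labels overlapped, and the log2 fold change was -0.05 with a 95% interval of -0.22 to 0.11 (edgeR adjusted p = 0.740). Its transcript was counted in every library, with 415 to 510 counts in each.

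Oas1c (120800194 to 120812514, minus strand) was at 12.8, 12.2, 11.5 and 12.9 CPM in the libraries labelled wild type and 9.57, 9.96, 11.8 and 9.73 CPM in those labelled knock-out. KO 4 stood above the other knock-out libraries and was the only one to reach the wild-type range. The log2 fold change was -0.27 ± 0.09, which did not pass (edgeR adjusted p = 0.0949). Without KO 4 it was -0.34 and passed (edgeR adjusted p = 0.0205), and limma-voom also called it (-0.31, adjusted p = 0.0222). These were the only 2 of 18 alternatives in which Oas1c passed, and the edgeR adjusted p reached 0.215 in the others. Whether the counting used strand is not known here, so reads of Oas1c and of the antisense Gm43069 cannot be told apart.

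Promoter sequence was available from RefSeq (GRCm38.p6) for 6 of the 8 members, as 250 bases before and 50 after the start. Oas1b and Oas2 had no entry. The windows were searched on both strands for the ISRE core, spelled GAAA, any 2 bases and GAAA again, and 4 of the 6 held it: Oas1a, Oas1g, Oas1c and Oas3. Of all 32851 promoters of that length, 3.44% held it. Of 22 measured genes in the list of other interferon-stimulated genes that had a promoter, 7 held it (31.8%). The windows of Oasl1 and Oasl2, with log2 fold changes of 2.31 and 2.28, held no ISRE core match. Oas1a and Oas1g, near copies of each other, are counted as separate genes in the 4. The 4 windows with a match are shown because some members that rose and some that did not pass share the element. Each reads 5′ to 3′ on the gene's strand, with the ISRE core matches in capitals.
Oas1a, chr5:120907476-120907775, minus strand: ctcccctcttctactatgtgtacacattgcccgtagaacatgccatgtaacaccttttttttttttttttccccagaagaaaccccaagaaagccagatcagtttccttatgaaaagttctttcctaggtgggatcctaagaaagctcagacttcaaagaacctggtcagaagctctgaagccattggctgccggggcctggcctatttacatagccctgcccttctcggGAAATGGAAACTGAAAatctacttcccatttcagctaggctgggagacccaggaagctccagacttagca
Oas1g, chr5:120887564-120887863, minus strand: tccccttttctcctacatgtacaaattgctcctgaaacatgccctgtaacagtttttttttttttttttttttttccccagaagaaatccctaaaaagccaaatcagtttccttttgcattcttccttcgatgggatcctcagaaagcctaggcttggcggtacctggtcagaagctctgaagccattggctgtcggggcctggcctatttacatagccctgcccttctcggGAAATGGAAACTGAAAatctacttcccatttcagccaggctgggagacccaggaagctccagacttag
Oas1c, chr5:120812465-120812764, minus strand: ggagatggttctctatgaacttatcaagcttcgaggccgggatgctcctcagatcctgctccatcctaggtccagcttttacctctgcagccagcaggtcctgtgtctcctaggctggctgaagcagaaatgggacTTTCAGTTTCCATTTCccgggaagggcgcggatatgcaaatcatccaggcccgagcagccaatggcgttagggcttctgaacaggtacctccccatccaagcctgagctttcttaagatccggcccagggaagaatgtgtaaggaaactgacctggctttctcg
Oas3, chr5:120777610-120777909, minus strand: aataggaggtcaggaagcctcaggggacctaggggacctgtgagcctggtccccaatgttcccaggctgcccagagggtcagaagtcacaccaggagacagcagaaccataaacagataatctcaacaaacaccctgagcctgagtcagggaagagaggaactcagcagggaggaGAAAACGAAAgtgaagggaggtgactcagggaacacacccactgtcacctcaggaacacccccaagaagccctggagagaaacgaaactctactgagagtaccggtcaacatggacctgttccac

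In Oas1a and Oas1g a pair of overlapping matches formed the same run of 16 bases, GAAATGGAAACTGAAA, at positions -20 to -5 from the start of Oas1a and -18 to -3 from that of Oas1g. The capitals of Oas1c, TTTCAGTTTCCATTTC, are the reverse complement of that run. They lie at -114 to -99 from the start of Oas1c, and Oas1c and Oas1b point away from each other with starts 121 bases apart. Counted from Oas1b, the run lies 22 to 7 bases before its annotated start and reads on its strand as in Oas1a. So Oas1a, Oas1g and Oas1b had the same 16 bases at a similar distance from the starts used here, with log2 fold changes of 0.78, 1.21 and -0.05. For Oas1a the distance depends on the annotated start. GENCODE begins the gene at 120907521 and the RefSeq gene record at 120907544, which is within the run (120907530 to 120907545). The single match of Oas3 lay at -75 to -66. The gamma-activated site, spelled TTC, any 3 bases and GAA, which is its own reverse complement, was found in Oas1a alone among the 6 windows, and in 8.3% of all promoters. It does not overlap the ISRE core there. A match is a description of the letters and not a measured binding site.

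Oas2 and Oas3 encode the larger synthetases, built from repeated synthetase units. Oas2 (120730333 to 120749853, minus strand) was at 1.67, 1.12, 1.06 and 1.33 CPM in WT 1, WT 2, WT 4 and WT 5. It was at 3.08, 5.45, 8.21 and 6.33 CPM in KO 1, KO 2, KO 4 and KO 5, a range of 2.67 times within the knock-out label. The lowest knock-out library was above the highest wild-type library. Its log2 fold change was 2.15 ± 0.29 (edgeR adjusted p = 0.00147).

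Oas3 (120753098 to 120777661, minus strand) was at 40.7, 49.2, 46.8 and 56.6 CPM in the libraries labelled wild type. Under the knock-out label it was at 62.8, 70.2, 49.4 and 67.1 CPM, so that KO 4 lay within the wild-type range and the other 3 above it. The log2 fold change was 0.37 ± 0.12 and did not pass (edgeR adjusted p = 0.101). Without KO 4 it was 0.46 and passed (edgeR adjusted p = 0.0166). limma-voom (0.43, adjusted p = 0.0241) and DESeq2 (0.37, adjusted p = 0.0344) called it with all libraries. These were the only 3 of 18 alternatives in which Oas3 passed, and the edgeR adjusted p reached 0.248 in the others. Oas3 and Oas2 are neighbouring members on the same strand, and the level of Oas2 was highest in KO 4, where that of Oas3 was the lowest of its label.

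Oasl1 and Oasl2 encode relatives of the synthetases that carry a ubiquitin-like tail, and they lie apart from the main cluster. Mouse Oasl1 has no synthetase activity and is known as a brake on the translation of Irf7, whereas mouse Oasl2 is an active enzyme. Oasl1 (chromosome 5, 114923240 to 114937915, plus strand) was at 0.979, 0.611, 0.278 and 0.731 CPM in the wild-type-labelled libraries and 2.51, 2.70, 4.28 and 3.45 CPM in the others. These rest on 11 to 40 counts and on 97 to 146 counts per library, the fewest of the family. WT 4 was the lowest library and KO 4 the highest, and the labels did not overlap. The log2 fold change was 2.31 ± 0.33 (edgeR adjusted p = 0.00193). An annotated gene antisense to Oasl1, Gm13822, and the model Gm43068 on the opposite strand of Oas2 could add to these counts if strand was not used.

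Oasl2 (114896936 to 114912234, plus strand) was at 2.03, 1.66, 1.77 and 2.64 CPM in the libraries labelled wild type. It was at 6.00, 6.90, 14.5 and 11.9 CPM in KO 1, KO 2, KO 4 and KO 5. KO 4 and KO 5 were the high libraries, and even KO 1 was above all 4 wild-type libraries. The log2 fold change was 2.28 ± 0.30 (edgeR adjusted p = 0.00119). KO 4 and KO 5 also carry another library code in the sample descriptions (8, against 7 for the other 6 libraries). Without both, an alternative chosen after seeing the data, the log2 fold change of Oasl2 was 1.67 (edgeR adjusted p = 0.00208), that of Oas2 1.72 and that of Oasl1 2.00, and the same 5 genes were called.

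**Figure D2:**
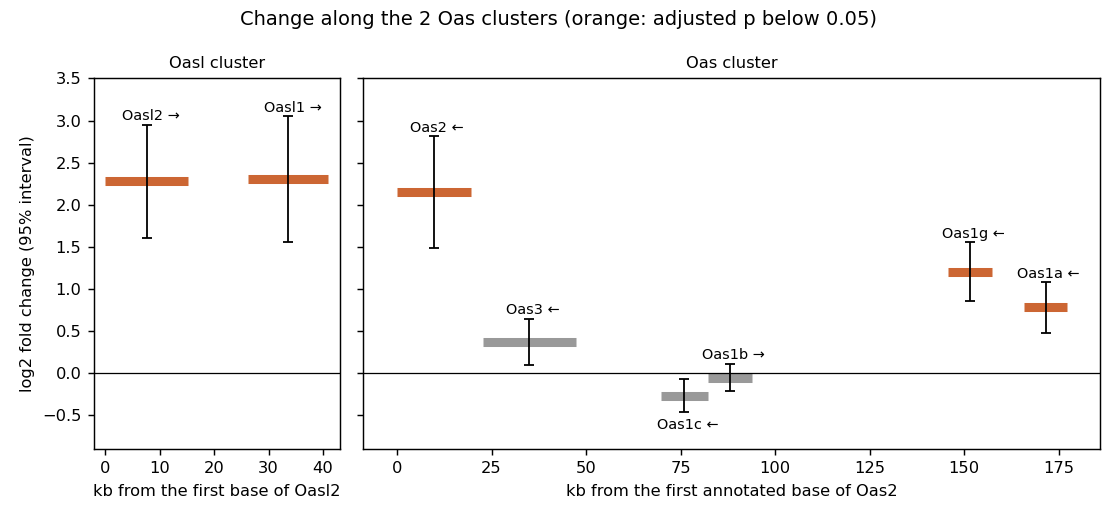
Log2 fold change of each Oas gene (bar, with a 95% interval) at its place in the Oasl cluster (left) and the Oas cluster (right), in kb from the first base of each cluster. Arrows give the strand. The 3 genes that did not pass (grey: Oas3, Oas1c and Oas1b) lie side by side between Oas2 and Oas1g.

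Along the main cluster the calls were not uniform. Among the measured members, Oas3, Oas1c and Oas1b, which did not pass, lie next to each other between Oas2 on one side and Oas1g and Oas1a on the other. The measured protein-coding genes nearest to both clusters did not rise. At the main cluster, Dtx1, a Notch pathway gene 18.5 kb away, stood at -0.28 on the log2 scale and did not pass (edgeR adjusted p = 0.195). On the far side, at 223 kb, the phosphatase gene Ptpn11 fell (-0.33 ± 0.05, edgeR adjusted p = 0.00304). Beside the Oasl pair, 2210016L21Rik at 4.24 kb (0.03) and 2610524H06Rik at 73.5 kb (-0.31) did not pass (edgeR adjusted p = 0.887 and 0.196).

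Whether the paralogues differed from each other was tested on the per-library difference of their log2 CPM, by a two-sided exact permutation test over the 70 assignments of 4 and 4 libraries. All 28 pairs of members were compared, and 19 passed at the smallest p this design allows (exact permutation p = 0.0286, adjusted p = 0.0421). Oas2, Oasl1 and Oasl2 each rose more than Oas1a, by 1.26, 1.52 and 1.39 log2 units, and more than Oas3, Oas1b and Oas1c. Oas1a rose more than Oas1b (0.84) and Oas1c (1.06). Oas1g rose more than its near copy Oas1a by 0.41, where the difference had an SD of 0.118 over the knock-out libraries and 0.0933 over the wild-type libraries. The differences among Oas2, Oasl1 and Oasl2 were 0.26, 0.13 and 0.13 in size and did not pass (exact permutation p = 0.571, 0.543 and 0.714 for Oas2 with Oasl1, Oas2 with Oasl2 and Oasl1 with Oasl2; adjusted p = 0.593, 0.585 and 0.714). The pairs of Oas1g with Oas2 and with Oasl2 also did not pass (-0.85 and -0.98, both with exact permutation p = 0.0571, adjusted to 0.0667), nor did those of Oas3 with Oas1a, Oas1b and Oas1c at the same p, nor Oas1b with Oas1c (0.22, exact permutation p = 0.114).

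To compare levels between genes, CPM were divided by the deposited gene length in kb, giving RPKM. Under the wild-type label the order was Oas3 (9.58 ± 1.30 RPKM, SD, n = 4), Oas1b (6.64 ± 0.316), Oas1c (5.41 ± 0.281), Oas1a (2.82 ± 0.523), Oas1g (1.26 ± 0.226), Oasl2 (0.645 ± 0.140), Oasl1 (0.295 ± 0.132) and Oas2 (0.291 ± 0.0612). Only the last neighbours in that order, Oasl1 and Oas2, had overlapping libraries. Under the knock-out label Oas3 (12.4 ± 1.82 RPKM) and Oas1b (6.39 ± 0.401) stayed first and second. Oas1a (4.84 ± 0.384) and Oas1c (4.49 ± 0.458) then overlapped, as did Oas1c with Oasl2 (3.13 ± 1.29), Oasl2 with Oas1g (2.90 ± 0.321), and Oasl1 (1.47 ± 0.367) with Oas2 (1.30 ± 0.479).

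The summed RPKM of the 8 genes was 25.3 to 28.6 under the wild-type label and 34.4 to 38.4 under the knock-out label. Oas2, Oasl1 and Oasl2 made up 4.58% ± 1.07 of that sum in the wild-type libraries and 15.9% ± 5.31 in the knock-out libraries (SD, n = 4 each). The share of Oas1b and Oas1c was 44.8% ± 2.32 and 29.6% ± 2.60, and that of Oas1a and Oas1g 15.1% ± 2.19 and 21.0% ± 1.37. Oas3 held 35.5% ± 3.12 and 33.6% ± 4.99. These shares carry the uncertainty of the Oas1a and Oas1g counts. KO 4 had the largest share of Oas2, Oasl1 and Oasl2 (22.6%) and the smallest of Oas3 (26.2%).

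**Figure D3:**
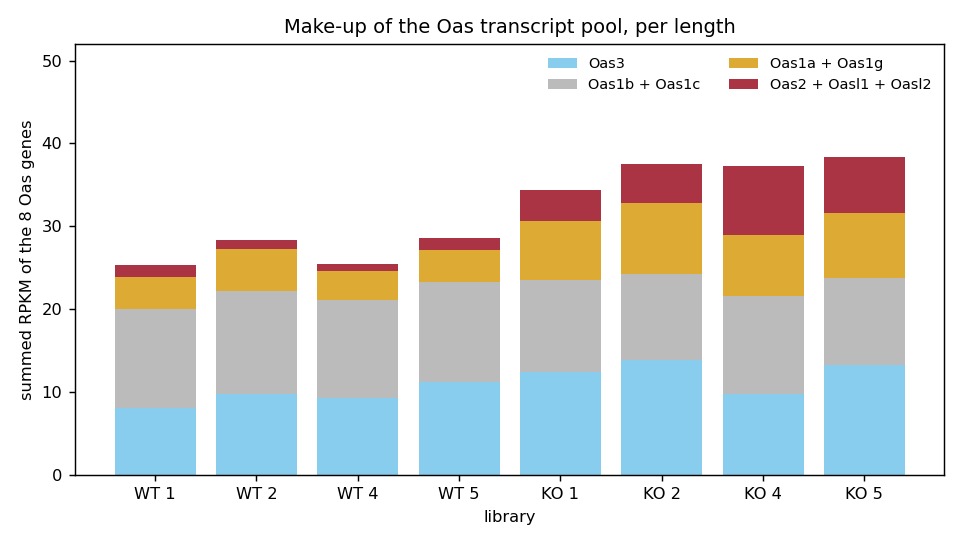
Summed RPKM of the 8 Oas genes in each library, stacked by group of genes. The dark red part (Oas2, Oasl1 and Oasl2) is 3.65 to 5.80% of the bar in the libraries labelled wild type and 10.9 to 22.6% in those labelled knock-out.

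Levels of the 3 genes that rose most stood in the order of the macrophage and monocyte markers under the knock-out label. Under the wild-type label not all of them did. The summed markers were at 324, 569, 743 and 1009 CPM in KO 1, KO 2, KO 5 and KO 4. Oas2 (3.08, 5.45, 6.33 and 8.21 CPM), Oasl1 (2.51, 2.70, 3.45 and 4.28 CPM) and Oasl2 (6.00, 6.90, 11.9 and 14.5 CPM) stood in that same order. KO 5 and KO 4, the highest, are also the libraries with the other library code. Between them and KO 1 and KO 2, marker level and code cannot be told apart. In the wild-type libraries the markers were at 62.4, 86.4, 86.5 and 110 CPM in WT 4, WT 2, WT 5 and WT 1, with the middle pair nearly equal. Oas2 and Oasl1 followed that order too, whereas Oasl2 was highest in WT 5 and lowest in WT 2. From KO 1 to KO 4 the macrophage and monocyte markers differed 3.12 times, Oas2 2.67 times, Oasl2 2.41 times and Oasl1 1.71 times. From WT 4 to WT 1 the markers differed 1.77 times, Oas2 1.57 times, Oasl2 1.15 times and Oasl1 3.52 times. The summed dendritic cell and MHC class II markers stood in the same library order under both labels. They were at 62.7, 96.3, 105 and 108 CPM in WT 4, WT 2, WT 5 and WT 1. In KO 1, KO 2, KO 5 and KO 4 they were at 445, 757, 937 and 1283 CPM. That order was thus not particular to the macrophage and monocyte markers.

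The other members did not stand in that order under either label. Between KO 1 and KO 4, Oas1a differed 0.970 times, Oas1g 1.15 times, Oas1b 0.962 times, Oas3 0.786 times and Oas1c 1.24 times. Oas1c was lowest in KO 1 and highest in KO 4, as the markers were, with KO 5 below KO 2 between them. Oas1a and Oas1g were highest in KO 2, which had the second lowest marker sum of its label. Because the libraries form separate groups of 4, no correlation of Oas levels with the marker sum was computed. The part of macrophage, dendritic cell or MHC class II transcripts in the rise of the Oas genes was not tested.

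**Figure D4:**
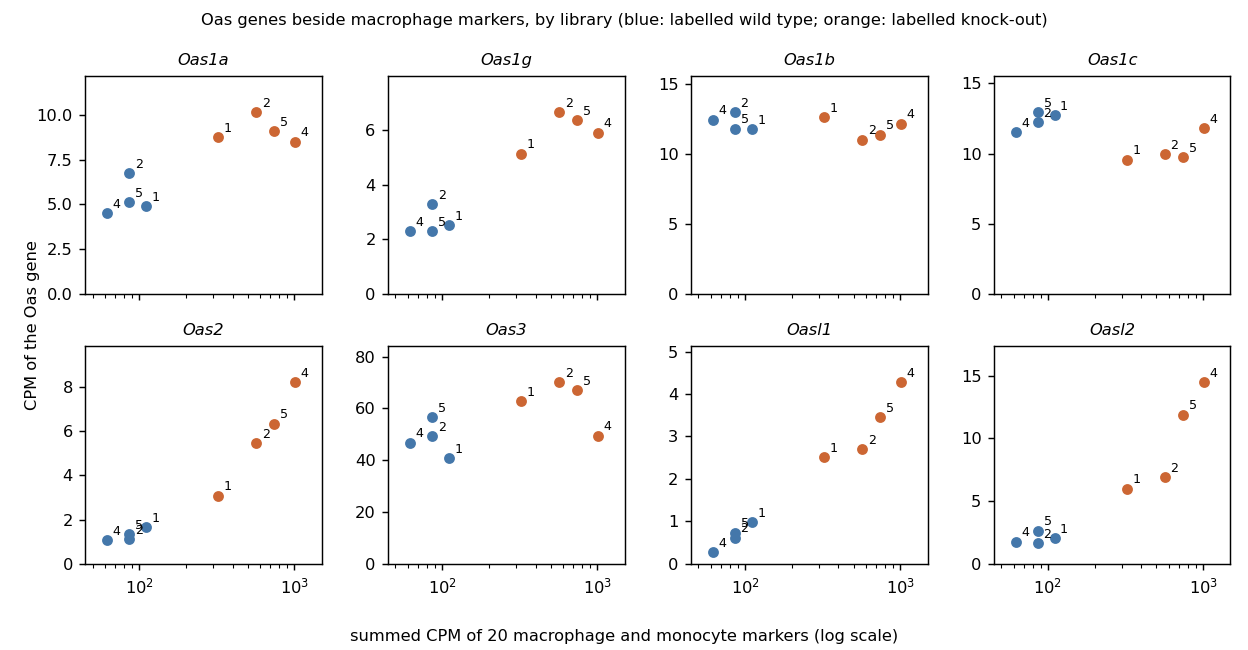
CPM of each Oas gene (vertical, from 0) against the summed CPM of 20 macrophage and monocyte markers (horizontal, log scale), 1 point per library with its host number. Oas2, Oasl1 and Oasl2 climb from KO 1 to KO 4 with the markers, while Oas1c shares only their lowest and highest knock-out library and Oas1a, Oas1g, Oas1b and Oas3 do not follow the markers.

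The 5 genes outside the family most like it were sought by Pearson's r over the 8 libraries, between a gene's deviations from its label means in log2 CPM and the mean deviation of the 8 members. They were the MHC class II genes H2-Eb1 (r = 0.996) and H2-Ab1 (0.986), the actin-severing gelsolin gene Gsn (0.994), the progranulin gene Grn (0.990) and the receptor gene Cd300c2 (0.985). H2-Eb1 averaged 10.7 ± 3.38 CPM in the wild-type-labelled libraries, and its log2 fold change was 3.72 ± 0.36. Gsn rose by 0.58 ± 0.13 (edgeR adjusted p = 0.0168) and Grn did not pass (0.52, edgeR adjusted p = 0.0704). The members themselves had r from -0.36 (Oas1b) to 0.87 (Oas2) with their own mean, and Oas2, Oasl1 and Oasl2 had the widest deviations in it. The points share library depth and the same TMM scaling, and these r are the highest among all genes outside the family.

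Other genes tied to oligoadenylates did not pass the test, nor did Mb21d1, which is listed with them only as a relative of the synthetases. Abce1, a ribosome recycling factor, averaged 114 ± 4.64 CPM in the wild-type-labelled libraries and 119 ± 2.20 CPM in the libraries labelled knock-out (SD, n = 4 each). Its log2 fold change was 0.07 with a 95% interval of -0.02 to 0.16 (edgeR adjusted p = 0.381). Pde12, which degrades oligoadenylates, had -0.09 (-0.21 to 0.02), and Mb21d1, the gene of the related nucleotidyltransferase cGAS, had 0.21 (0.01 to 0.40). Abce1, Pde12 and Mb21d1 were called by neither edgeR, limma-voom nor DESeq2, and Mb21d1 had an unadjusted p of 0.041.

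Among 8 measured genes of interferon receptors and JAK kinases 2 rose, or 25.0%, beside 6.2% of all genes. Ifnar2, a type I interferon receptor chain, was at 45.3, 39.8, 44.9 and 45.2 CPM in the wild-type-labelled libraries and 59.8, 54.2, 59.1 and 58.5 CPM in the others. The labels did not overlap, and it rose by 0.40 ± 0.06 on the log2 scale (edgeR adjusted p = 0.00172). Ifngr2, a chain of the interferon-gamma receptor, rose from 0.813 ± 0.205 to 4.61 ± 1.70 CPM (2.50 ± 0.32, edgeR adjusted p = 0.00109), with 2.28, 4.53, 5.42 and 6.22 CPM in KO 1, KO 2, KO 5 and KO 4. Ifngr2 thus had the same order of knock-out libraries as the macrophage markers, and Ifnar2 did not. Tyk2 (-0.18) and Jak2 (-0.18) did not pass with edgeR, whereas limma-voom and DESeq2 called Tyk2 lower.

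The STAT and IRF genes described here were not called by edgeR. limma-voom called Irf7 higher, and DESeq2 called Irf5 and Irf7 higher. Stat2 (-0.03, interval -0.17 to 0.11) and Irf9 (-0.04, interval -0.15 to 0.07) were near 0. Irf7, the interferon-induced factor that Oasl1 is known to restrain, was at 136 ± 6.01 and 163 ± 20.7 CPM and did not pass (0.26 ± 0.08, edgeR adjusted p = 0.0923). Irf5 (0.45), Irf8 (0.35) and Irf3 (-0.06) did not pass either. Of the 6 genes listed as inhibitors of interferon signalling 0 were called by edgeR, limma-voom or DESeq2, and 0 had an unadjusted p under 0.05. Among them were Socs3 (0.35), Usp18 (0.31), Ptpn2 (0.10) and Isg15 (0.10). Isg15 was counted in this list and not among the other interferon-stimulated genes below. Of the interferon ligands Ifng alone was measured, at 817 and 854 CPM (0.06, edgeR adjusted p = 0.846), and the other 9 were not analysed here.

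Of 29 other interferon-stimulated genes measured, 2 rose and 2 fell. The called share was 13.8%, beside 10.0% of all genes, with 6.90% in each direction beside 6.2% higher and 3.84% lower. At an unadjusted p under 0.05 there were 10 of the 29, and the median log2 fold change of the list was 0.04. limma-voom also called 2 higher and 2 lower, and DESeq2 5 higher and 3 lower. Ifit3, an RNA-binding antiviral gene, rose from 4.31 ± 0.493 to 7.14 ± 1.08 CPM (0.73 ± 0.14, edgeR adjusted p = 0.00986) and Ifi35 by 0.27 ± 0.06 (edgeR adjusted p = 0.0146). Ifi27l2a fell from 76.3 ± 7.01 to 43.6 ± 6.06 CPM (-0.81 ± 0.10, edgeR adjusted p = 0.000993). Ube2l6, the gene of the conjugating enzyme for ISG15, fell too (-0.77 ± 0.17, edgeR adjusted p = 0.0178). Among 7 measured genes listed as nucleic acid sensors, not all of them sensors in a strict sense, Ifih1 fell (-0.35 ± 0.09, edgeR adjusted p = 0.0434). Ifih1 encodes the double-stranded RNA sensor MDA5. Ddx58 (0.05), Zbp1 (0.06) and Eif2ak2 (-0.04), the gene of the RNA-dependent kinase PKR, did not pass.

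**Figure D5:**
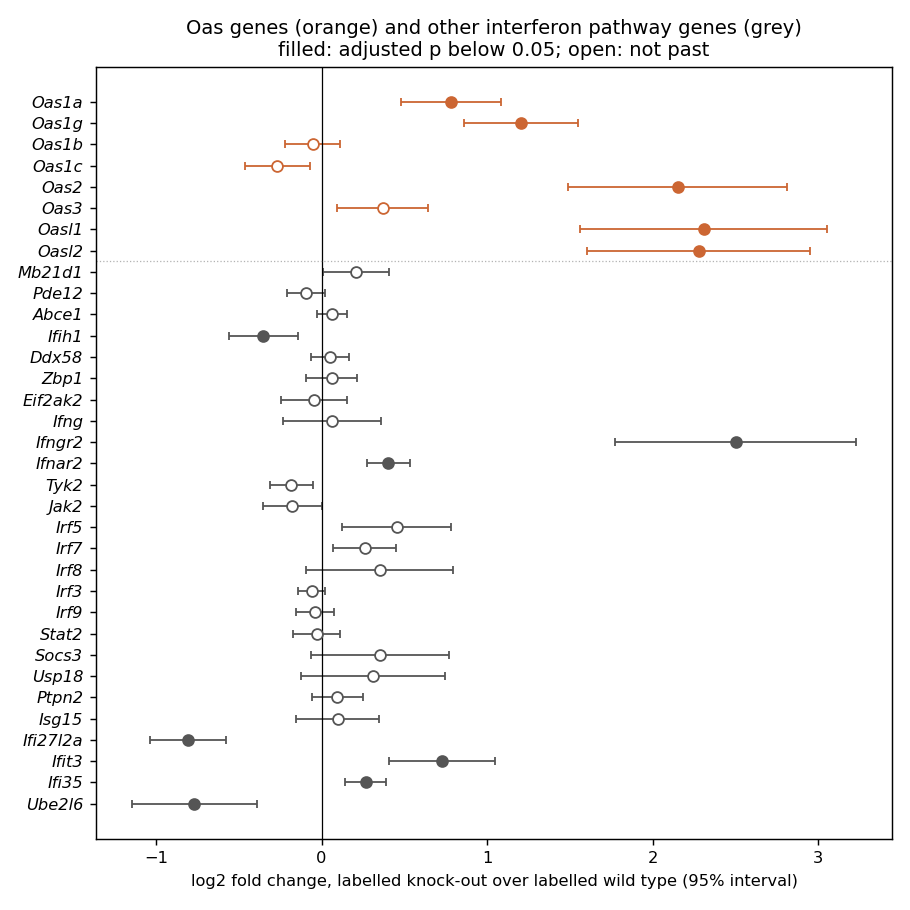
Log2 fold change of the Oas genes (orange) and of the named genes of the interferon lists (grey), with 95% intervals. Filled points passed the test. Oas2, Oasl1 and Oasl2 sit between 2.15 and 2.31, and of the grey points Ifngr2 alone, at 2.50, lies beyond 1.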

How the data were processed

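Poly(A) RNA of 8 libraries was made into stranded TruSeq libraries and sequenced from 1 end over 81 bases, per the labels' protocols. Reads were aligned with STAR to mm10, per the submitters' processing notes. How reads were assigned to genes (tool, annotation, strand) is not given in the sources used here. The authors deposited unnormalized counts of reads for each gene, as their whole numbers and unequal totals show, with a gene length in bases. Groups came from the labels, and 0 columns of per-sample values were left unused.

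filterByExpr kept all 11354 genes, TMM factors gave CPM, and edgeR 4.0.16 (estimateDisp, glmQLFit, glmQLFTest) tested the label alone, with limma 3.58.1 and DESeq2 1.42.0 as alternatives. Standard errors were derived from the fold change and its F value, and a 95% interval uses the fit's degrees of freedom. Log2 CPM had a prior count of 2. The edgeR script was tested on simulated counts. Software was R 4.3.3, Python 3.11.15, numpy 2.4.6, pandas 2.3.3, scipy 1.17.1 and matplotlib 3.10.9. Shared windows were exact matches of 81 bases over all GENCODE vM21 transcripts, on both strands.

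Named genes were all members, Nlrp6, the nearest measured protein-coding gene on each side of both clusters, and the 5 genes most like the family. Of each list other than the cell markers, at most 4 genes were named by smallest p, with Abce1, Stat2, Irf9 and Irf7 always. Results on some genes are not reported here. The members, lists and tests were chosen with earlier results of these data known. The lists of natural killer, CD8 and epithelial markers had 0, 1 and 0 genes called higher and 0 called lower. Alternatives were RLE or total library size, no filter or 1 CPM in 4 libraries, other tools, the host number as a block, the library code as a term, and libraries left out.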

Additional observations from a re-analysis of the deposited data

Results flagged for a closer look

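In 1 gene, 1 library was flagged. Oas1c was at 11.8 CPM in KO 4, while KO 1, KO 2 and KO 5 lay between 9.57 and 9.96 CPM, a gap past Dixon's 95% critical value for 4 samples. The 8 members and Nlrp6 were examined in both labels, which made 18 groups of 4, and chance flags about 1 in 20 such groups.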

How the results depend on the processing

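The calls of Oas1a, Oas1g, Oas2, Oasl1 and Oasl2 held under every alternative run, with log2 fold changes on each gene's own counts from 0.70 to 0.91 for Oas1a, 1.13 to 1.33 for Oas1g, 1.72 to 2.36 for Oas2, 2.00 to 2.57 for Oasl1 and 1.67 to 2.45 for Oasl2. Oas1b passed under none of them (-0.09 to -0.02). Not all of these runs are separate checks. filterByExpr kept all genes, so the run with no filter repeated the main one. The other library code occurs only in KO 4 and KO 5. The code term thus gave the same fold changes as leaving both out (1.72 for Oas2, 2.00 for Oasl1 and 1.67 for Oasl2). Members called lower numbered 0 with edgeR (1 at an unadjusted p under 0.05, Oas1c), 0 with DESeq2, 1 with limma-voom, and 0 to 1 with 1 library left out. Oas3 and Oas1c changed calls as given beside their values. Deviations of same-numbered libraries had correlations of -0.06, 0.18, -0.14 and 0.26 for hosts 1, 2, 4 and 5. WT 2 and WT 5 correlated best with the knock-out library of their own number, and WT 1 and WT 4 with another. With 4 libraries per label, these values cannot tell whether same-numbered libraries shared a host. With the host number as a replicate block 5 members stayed higher and 0 lower, with 638 and 382 of all genes. Over all genes, 436 lower calls became 249 with the library code as a term and 276 to 509 with 1 library left out (277 without WT 1, 276 without KO 1). The cause was not tested. The lowest counts, 11 to 40 per wild-type library for Oasl1, limit the precision of its fold change.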

Other observations

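The run of 16 bases shared by Oas1a, Oas1g and, in reverse complement, Oas1c, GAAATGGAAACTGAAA, was found on either strand in 7 of 32851 RefSeq promoters (0.0213%), which belong to 5 genes. The other two genes are Apol9a and Apol9b, of the apolipoprotein L family. Apol9b, named after its values were seen, was at 1.93, 1.73, 2.48 and 2.61 CPM in WT 1, WT 2, WT 4 and WT 5 and at 2.72, 2.39, 3.17 and 3.05 CPM in KO 1, KO 2, KO 4 and KO 5. KO 2 lay within the wild-type range, and the log2 fold change was 0.37 ± 0.18 (edgeR adjusted p = 0.253). Apol9a was not analysed here.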
